A study of Caenorhabditis elegans with 2 samples.

Results

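NFYB-1 summits in promoter windows of genes transcribed in opposite directions made up 219 of the 1365 promoter summits in the worm genome (16.0%, exact 95% interval 14.1 to 18.1). A summit is the single base that the authors' peak caller placed at the point of a bound region, and it was counted as a promoter summit where an annotated start of a protein-coding gene lay within 500 bp on its downstream side or within 200 bp on its upstream side, as that gene is read. The 219 were those whose position met this rule for at least 1 gene on each strand, and the other 1146 promoter summits had starts on 1 strand only. The rule used position alone. In all, the main list held 3890 regions, of which 3879 lay on the nuclear chromosomes.

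The binding map came from chromatin immunoprecipitation followed by sequencing (ChIP-seq) of Caenorhabditis elegans, with 2 biological replicates of a single group. The worms were whole young adults of strain RW12190, collected at 65 hours after a synchronising starvation of the first larval stage. They carried nfyb-1 fused at its own locus, by CRISPR insertion, to TY1, EGFP and 3xFLAG, and chromatin was pulled down with an antibody against GFP. No other genotype, treatment or stage was compared, all values come from 1 engineered strain, and whole animals mix the nuclei of every tissue.

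NF-Y is a transcription factor of A, B and C subunits. The B and C subunits carry histone folds, and the A subunit reads the CCAAT box, a promoter element found upstream of many housekeeping, cell cycle and chaperone genes in animals. Where starts on opposite strands lie close together, a single bound site can sit in the upstream region of both genes. In worms many messenger RNAs are trans-spliced, so an annotated start can lie downstream of the place where transcription begins.

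An extended CCAAT box, RRCCAATSR (R stands for A or G, and S for C or G), lay within 100 bp of 10 of the 219 summits. All 10 boxes had their middle base between the nearest opposite starts, though the box of gei-14/slc-25A32 reached across the gei-14 start. They match the known NF-Y site, and 9 are shown, in order of signal, on the strand that reads CCAAT, with the box in capitals (RefSeq WBcel235 genome, which is ce11).
ift-43/mdt-26, chrII:5661090-5661119, plus strand: aggcgtggccAGCCAATCAgcgcactgcaa
C47E8.4/hsp-90, chrV:14685794-14685823, plus strand: tttgaaaaccAACCAATCAaattgaaaggc
imp-2/enpl-1, chrIV:11119188-11119217, minus strand: gaggcggaatcAGCCAATCAacgaccgaga
aars-1/rga-1, chrII:11464734-11464763, minus strand: gcatatataatGACCAATCAatatgtttga
F14D2.14/bath-29, chrII:3348358-3348387, plus strand: aggcgtggcaAACCAATCAgctgttgtttc
rps-13/nfx-1, chrIII:6375087-6375116, minus strand: caattcattttAGCCAATCAtagggcactt
ZK688.5/fahd-1, chrIII:7892034-7892063, plus strand: cgtccaccagGGCCAATGGctcgtaagaga
rps-14/rpl-36, chrIII:7179842-7179871, plus strand: gtcgctacgcAGCCAATGGtctcaccacga
gei-14/slc-25A32, chrII:8276218-8276247, plus strand: tccgtgccgaGACCAATGAgtgaaattatg

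The first and the third of these boxes share the core AGCCAATCA, which also occurred at rps-13/nfx-1. Of the 10 boxes, 7 lay within 50 bp of the summit, and the median distance over all 10 was 29 bp. The box of ift-43/mdt-26 was centred 0 bp from its summit and that of C47E8.4/hsp-90 15 bp from its summit. At imp-2/enpl-1 the box was centred 29 bp on the minus-strand side of the summit. The boxes of aars-1/rga-1 and rps-13/nfx-1 lay farther off, at 72 and 85 bp.

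Whole windows of 201 bases around the summit are shown for the strongest promoter with a box whose window held no annotated exon, and for a pair of strong promoters without one, which were picked after their values were seen. Capitals mark the extended box in the first, and CCAAT or CGCGC on either strand in the others (ATTGG and GCGCG are their reverse complements).
C47E8.4/hsp-90, chrV:14685693-14685893, plus strand: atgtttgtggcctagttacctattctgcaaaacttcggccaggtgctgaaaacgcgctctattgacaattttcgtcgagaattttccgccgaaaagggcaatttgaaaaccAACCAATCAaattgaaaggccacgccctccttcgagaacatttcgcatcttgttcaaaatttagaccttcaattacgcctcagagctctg
F44E5.4/F44E5.5, chrII:11759390-11759590, plus strand: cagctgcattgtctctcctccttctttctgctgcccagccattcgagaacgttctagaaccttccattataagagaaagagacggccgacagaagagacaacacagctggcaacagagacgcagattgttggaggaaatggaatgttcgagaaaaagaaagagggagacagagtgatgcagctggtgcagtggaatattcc
drr-2/set-16, chrIII:13643637-13643837, plus strand: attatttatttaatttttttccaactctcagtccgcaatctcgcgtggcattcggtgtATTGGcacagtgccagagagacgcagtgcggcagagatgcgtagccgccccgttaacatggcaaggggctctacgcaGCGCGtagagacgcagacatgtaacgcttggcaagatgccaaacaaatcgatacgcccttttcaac

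The window at F44E5.4/F44E5.5 held neither CCAAT nor CGCGC, although its signal was the fourth highest of all 219.

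The strongest summits lay at genes for chaperones, ribosomal proteins and parts of the transcription and secretion machinery. The signal is the peak caller's own value per region on a scale that the sources used here do not state, and main-list values stand on another scale than those of a replicate. At the head was ift-43/mdt-26 on chromosome II, with a bound region at chrII:5660817-5661545 and a signal of 7338. The gene ift-43 encodes a protein of intraflagellar transport, which builds cilia, and mdt-26 a subunit of the Mediator complex of transcription. Its signals were 3411 in replicate 1 and 3851 in replicate 2, a mean of 3631 ± 311 (SD, n = 2). The summit lay 77 bp upstream of mdt-26 and 318 bp upstream of ift-43, so mdt-26 was the nearer gene.

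The next ranks belonged to genes for the cytosolic Hsp90 and the Hsp90 of the endoplasmic reticulum. C47E8.4/hsp-90 on chromosome V (chrV:14685587-14686054) reached 4058, with 1928 in replicate 1 and 2136 in replicate 2. Here hsp-90 started 367 bp away and C47E8.4, a FAM50 homolog, 308 bp away, with the summit in an annotated intron. The imp-2/enpl-1 region on chromosome IV (chrIV:11119025-11119462) reached 2829, with 1254 and 1569 in replicates 1 and 2. Its summit lay 67 bp from enpl-1, the chaperone gene of the endoplasmic reticulum, and 344 bp from imp-2, an intramembrane protease.

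The next summit stood well below these. It lay at F44E5.4/F44E5.5 (chrII:11759266-11759696), where both genes encode an Hsp70 chaperone, with a signal of 1149 and replicate values of 559 and 594. The summit sat almost midway, 179 bp from F44E5.4 and 172 bp from F44E5.5. Next in order, rpl-20/Y17G9B.5 reached 1106 (505 and 605 in replicates 1 and 2) and drr-2/set-16 reached 1026 (437 and 595). Both regions held a summit between starts, of a large-subunit ribosomal protein and an ECSIT homolog in the first, and of a translation factor and a histone methyltransferase in the second. The rpl-15/K11H12.8 summit reached 948 (445 and 524). At sec-61.B/trap-3 the genes encode the beta subunit of the Sec61 protein-conducting channel of the endoplasmic reticulum and the gamma subunit of the translocon-associated protein. The signal there was 815 (362 and 465). The cct-8/Y55F3AR.2 summit, beside a subunit gene of the cytosolic chaperonin, reached 733 (343 and 389).

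Ranks 10 to 20 ran from 725 at rps-19/hsr-9 down to 440.0 at a pair that RefSeq annotates as a transposase and an EAL domain protein, and each of them overlapped the lists of both replicates. They included rpl-12/lin-54 (641), where lin-54 encodes a DNA-binding subunit of the DREAM repressor complex, and tim-1/Y75B8A.23 (614), where tim-1 is the timeless homolog. The others in that range were rpl-7A/set-21, gmps-1/cap-2, mcrs-1/atp-1, lin-53/nra-2, C55A6.1/C55A6.10, npp-3/top-2 and fbxb-85/hex-3. At mcrs-1/atp-1, the summit lay 1 bp from the start of atp-1, the alpha subunit of mitochondrial ATP synthase, and 189 bp from mcrs-1.

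**Figure D1:**
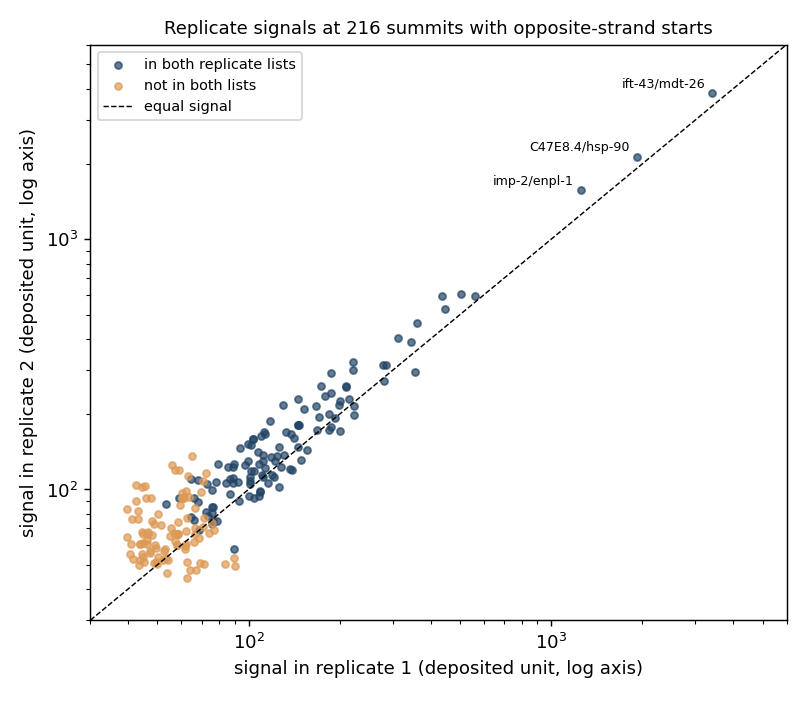
Signal in replicate 1 (x axis) against replicate 2 (y axis), both log axes in the deposited unit, for the 216 summits with a value in both; colour shows whether the region overlapped both replicate lists. The 3 strongest, at ift-43/mdt-26, C47E8.4/hsp-90 and imp-2/enpl-1, stand apart from the rest in both replicates.

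Replicate 2 was the higher at most summits, and the ratio of the replicates varied among the strongest. As log2 of replicate 2 over replicate 1 it was, for example, 0.09 at F44E5.4/F44E5.5, 0.64 at C55A6.1/C55A6.10 and -0.27 at rpl-12/lin-54. Of the 219 summits, 217 had an overlapping ranked region in replicate 1 and 218 in replicate 2. The log2 ratio of replicate 2 over replicate 1 had a median of 0.24 and quartiles of 0.04 and 0.50 over the 216 summits with both. The signals are unscaled, so this includes any difference between the libraries as a whole. No sequencing depth is known.

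Summits with starts on both strands had a higher median signal than those with starts on 1 strand, as a description over regions. Their median main-list signal was 168 (quartiles 125 and 260), against 128 (106 and 180) at the other promoter summits and 126 at all nuclear summits. The medians were 75.7 against 61.7 in replicate 1 and 97.3 against 72.5 in replicate 2. Regions are not replicates, so no test was made of these medians. The highest main-list signal of all promoter summits, 18739, lay at a summit with starts on 1 strand, above the 7338 of ift-43/mdt-26. Among the 219, the lowest signals were 40.5 at dli-1/exos-4.1, 31.7 at smn-1/klp-16 and 19.5 at spd-2/F32H2.10. Of the 219 regions, 174 had a single fixed width of 376 bp with the summit at the middle base, and none of those exceeded a signal of 309.

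Summits with starts on both strands were also found in both replicate lists more often. Of the 219, 119 (54.3%, exact 95% interval 47.5 to 61.1) overlapped the thresholded lists of both replicates, against 392 of 1146 (34.2%, 31.5 to 37.0) with starts on 1 strand (odds ratio 2.29, two-sided Fisher's exact test, p = 2.56e-07 with Benjamini-Hochberg adjustment over 8 p-values). Another 54 of the 219 overlapped neither list. Presence in both lists was highest in the top quartile of signal in both classes. In the lowest quartile of signal over all promoter summits the shares were 3.13% (1 of 32) against 5.81% (18 of 310). In the highest quartile they were 98.9% (91 of 92) against 94.4% (235 of 249). Inside the middle quartiles the shares were 4.88% against 3.33% and 46.3% against 44.9%, and the intervals of the classes overlapped in each of the 4 quartiles. At a stricter irreproducible discovery rate of 0.001 the difference between the classes over all signals was 6.38 percentage points (adjusted Fisher's exact p = 0.653). The part of signal in the difference was not tested.

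**Figure D2:**
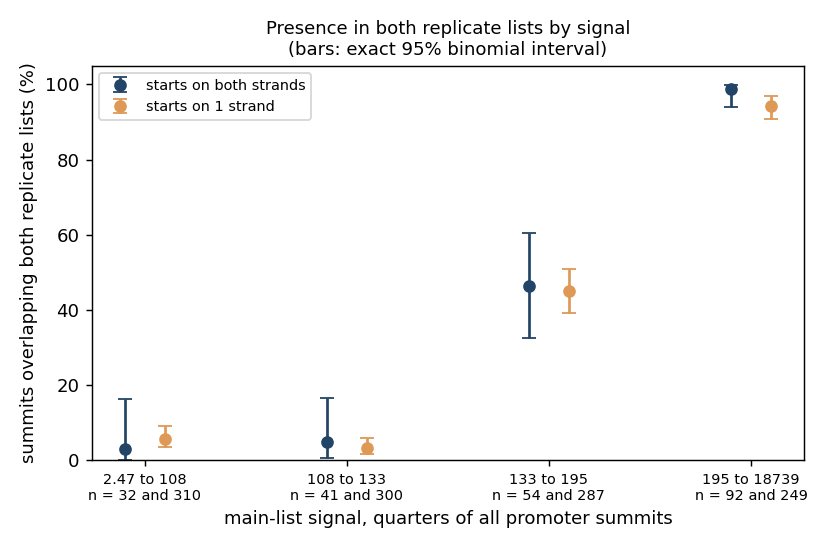
Share of promoter regions that overlap both replicate lists (y axis, %) in 4 classes of main-list signal (x axis), with exact 95% binomial intervals, for summits with starts on both strands and on 1 strand. Within a class of signal the points lie close together, for example 46.3% and 44.9% in the third.

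The summit usually fell between the starts, off centre. In 194 of 219 cases (88.6%, 83.6 to 92.5) it lay between the nearest start on each strand. At 217 summits the nearest starts were arranged head to head with a space between them. At the other 2 summits, T22D1.8/T22D1.17 and F11C1.1/F11C1.7, the 5' ends overlapped by 88 and 7 bp in the annotation (gaps of -88 and -7 bp). The nearer start was a median of 127 bp away (quartiles 60.5 and 190.5) and the farther 274 bp (190 and 382.5), while the gap between starts had a median of 383 bp (265.5 and 532). The rule bounds each distance, so these are descriptions. Of the 864.8 kb in promoter windows of both strands, 571.7 kb lay upstream of starts on both. Of all 1944 annotated opposite-strand pairs whose promoter windows overlap, 60 had overlapping starts. The shares between the starts and head to head therefore follow the rule and the annotation in part.

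Few summits were equally far from both starts. The distances differed by at most 50 bp at 53 summits and by at most 100 bp at 90. The most even were T26A8.4/pdtf-1, at 73 and 72 bp, and col-38/rpl-5, at 419 and 420 bp. Next came rps-13/nfx-1, fipr-17/Y48A6B.3 and rps-15/F36A2.9. At the other extreme, summits lay within 2 bp of a start at mcrs-1/atp-1, ctf-4/eef-1G, erh-1/lpd-9, rpl-31/sac-2 and ddx-17/aip-1, which were named after their values were seen.

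The gene on the plus strand was the nearer one at 129 summits and the gene on the minus strand at 90 (58.9% for plus, 52.1 to 65.5). With the replicates' own summits the plus gene was nearer in 55.3% (48.4 to 62.0) and 55.5% (48.6 to 62.2), and both intervals include an even split. The median shift from the midpoint was 16.5 bp toward the plus start in the main list, 9 bp in replicate 1 and 15.25 bp in replicate 2. A shift toward a strand is small beside the spread, since the middle of the distribution ran from -49.5 to 83.25 bp in the main list. Where starts lay on 1 strand only, summits lay a median of 167 bp upstream on the plus strand and 159 bp on the minus strand.

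**Figure D3:**
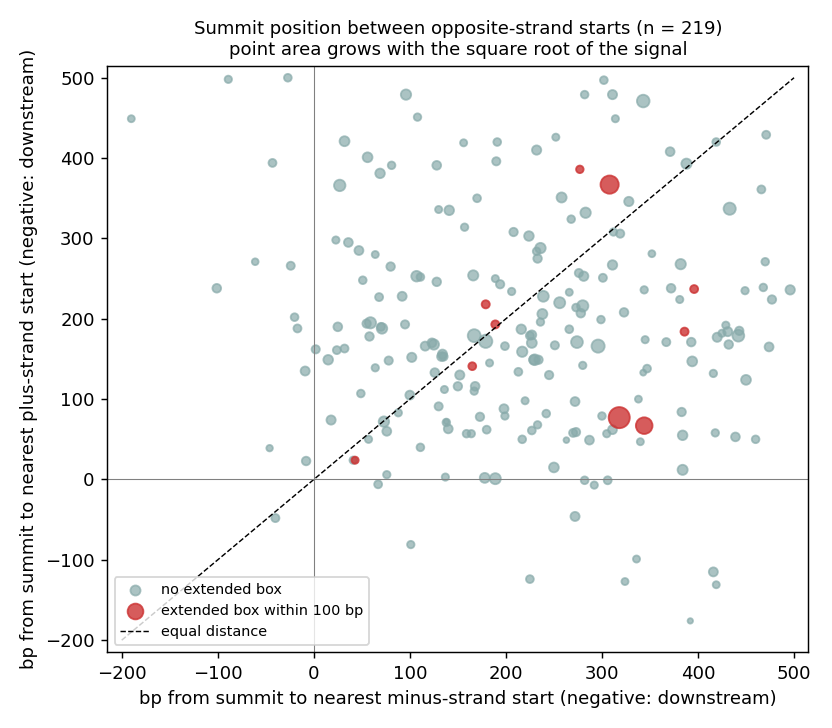
Distance in bp from each of the 219 summits to the nearest start on the minus strand (x axis) and on the plus strand (y axis), negative where the summit lies downstream; point area grows with the square root of the signal and red marks the 10 summits with an extended box. Most points lie in the upper right field, where the summit is upstream of both starts, and few lie on the line of equal distance.

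Most summits lay outside genes. The annotation placed 182 between genes, 30 in an exon and 7 in an intron of a protein-coding gene. A summit lay downstream of at least 1 nearest start in 25 cases, and downstream of both in 1. The narrowest arrangements with a gap above 0 were F25H9.6/F25H9.7 with 15 bp and Y59E9AL.36/nbet-1 with 20 bp, followed by F01F1.11/F01F1.3 and F32D8.14/F32D8.5. The widest were sqv-3/vha-1 with 900 bp, col-38/rpl-5 with 839 bp, Y119C1B.10/D1007.15 with 827 bp, rpl-15/K11H12.8 with 814 bp and pdi-1/C14B1.2 with 799 bp.

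The edge of the window decided a few cases. Just inside the upstream edge, the summits at snrp-40.1/F08G12.3, T28D9.11/T28D9.1 and pdi-1/C14B1.2 lay 500, 498 and 497 bp from the farther start. Just outside it, summits lay 503 bp from gcy-35, 503 bp from nhr-142 and 506 bp from ifet-1. At the downstream edge, those inside lay 190 bp within mom-4, 176 bp within klp-16 and 131 bp within rbm-12, and those outside 212 bp within lgmn-1, 237 bp within spd-5 and 285 bp within ctps-1.

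Summits were denser where promoter windows of opposite strands overlapped. Shared windows covered 864.8 kb and held 253 summits per Mb (exact Poisson 95% interval 221 to 289). Windows of 1 strand held 73.3 per Mb (69.1 to 77.6) and the rest of the nuclear genome 30.01 (28.9 to 31.2). Counting only the stretches upstream of the starts, the densities were 346 per Mb (300 to 398) with both strands and 83.7 (78.4 to 89.3) with 1. On each of the 6 chromosomes the shared windows were denser than those of 1 strand. The X chromosome had 7 such summits in 38.5 kb of shared windows, or 182 per Mb (73.1 to 375), and its strongest was trap-2/ile-2 at 315. Windows of either kind differ in the genes they serve, and the part of that in the densities was not tested.

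Of 1944 opposite-strand pairs whose promoter windows overlap, 220 had a summit in the overlap (11.3%). The share was 17.7% (14.5 to 21.3) for gaps of 200 to 399 bp and 15.5% (12.2 to 19.2) for 400 to 599 bp. Narrower gaps of 1 to 199 bp had 9.7% (6.4 to 13.9), wider gaps of 600 to 1000 bp 5.25% (3.70 to 7.19), and overlapping starts 5% (3 of 60). These shares follow the rule in part, since the gap fixes how many bases lie in both windows. The mean shared length was 268 bp for overlapping starts and 532, 651, 500.4 and 217 bp for the successively wider gaps. Per Mb of shared window, the pairs with a summit numbered 186 (exact Poisson 95% interval 38.4 to 545) for overlapping starts and 182 (119 to 267) for gaps of 1 to 199 bp. For the wider gaps they numbered 272 (218 to 334), 309 (239 to 393) and 242 (169 to 335) in order, and all 5 intervals overlapped. Genes in such a pair had a promoter summit in 14.04% of 3810 cases (13.0 to 15.2), against 5.85% of 16163 genes in no such pair (5.49 to 6.22). Among all 19973 protein-coding genes the share was 7.41%. A summit in the overlap counts for both genes of its pair, so part of this difference follows from the rule. The intervals treat genes as independent.

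**Figure D4:**
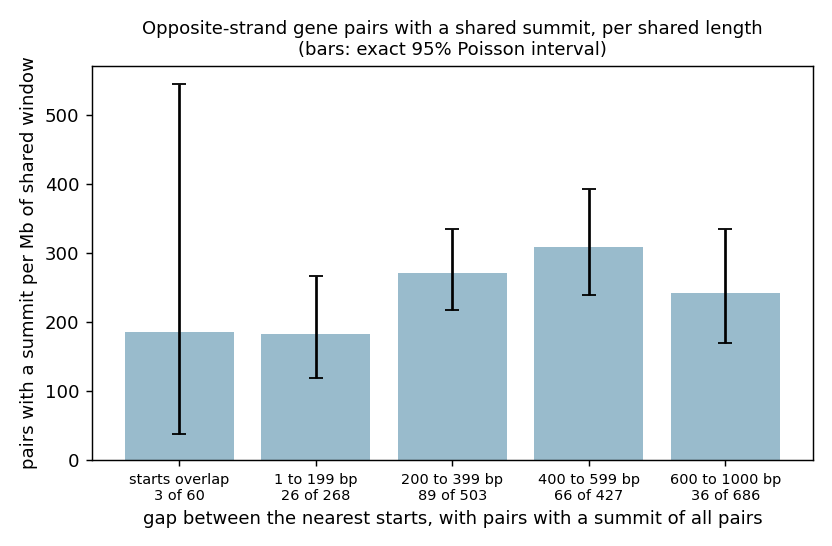
Annotated opposite-strand gene pairs with a summit in both promoter windows, per Mb of shared window (y axis), by the gap between their nearest starts (x axis), with exact 95% Poisson intervals. The values run from 182 to 309 per Mb, and the intervals overlap.

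The 219 summits served 435 genes, 2.18% of all protein-coding genes, and the lists of cytosolic ribosomal proteins and of chaperones had the highest shares. In all, 109 summits had a gene of at least 1 of the 13 lists described here, a count not made for the other promoter summits. Lists were built from gene symbols, and no test of a list was made. A promoter summit of either kind lay at 7.41% of all genes. It lay at 32 of 101 chaperone, 32 of 94 splicing, 25 of 89 respiration and 18 of 77 translation genes. It also lay at 24 of 107 proteasome, 26 of 144 cell cycle, 27 of 144 membrane traffic and 19 of 91 lysosome genes. The other counts were 9 of 70 mitochondrial ribosomal, 64 of 677 transcription, 11 of 1309 chemoreceptor and 1 of 169 collagen genes. Cytosolic ribosomal protein genes stood at 33.3% (27 of 81 genes, at 24 summits), and 49 of the 81 had a promoter summit of either kind. They included rpl-20, rpl-15 and rps-19, in that order of signal, and the median signal of their summits was 203. The nearer gene was ribosomal at 10 of the 24 summits, and 3 of the 24 had a ribosomal gene on each side. Of their 24 summits, 7 held CCAAT and 2 the extended box, at rps-13/nfx-1 and rps-14/rpl-36. At rps-10/rpl-24.1, rps-14/rpl-36 and rpl-39/rps-30, both genes encode ribosomal proteins, with main-list signals of 210.5, 119.9 and 92.9.

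Chaperone and folding genes stood at 16.8% (17 of 101 genes, at 16 summits), and their summits had a median signal of 283. Besides hsp-90, enpl-1 and cct-8 they included 3 more chaperonin subunit genes, cct-1, cct-5 and cct-7, the prefoldin gene pfd-1 and the mitochondrial Hsp70 gene hsp-6. Both genes of hsp-16.2/hsp-16.41 encode small heat shock proteins of the same family, and their summit, at 165.8 (60.3 and 92.6 in replicates 1 and 2), overlapped no more than 1 replicate list. F44E5.4 and F44E5.5 carry no chaperone symbol and are not in this count. The hsp-110/rpn-3 summit, at 369, joined a chaperone gene of the Hsp110 family to one for a lid subunit of the proteasome.

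Splicing and RNA processing genes stood at 16% (15 of 94 genes, at 13 summits) and respiration and mitochondrial import genes at 11.2% (10 of 89, at 11 summits). In the splicing list, 3 summits had a listed gene on each side, at rsp-2/rsp-1, snr-3/rsp-5 and snu-13/rsp-7, with signals of 234.9, 159.8 and 113.1. The rsp genes encode SR proteins, snr-3 a core protein of the spliceosomal particles, and snu-13 a protein of the U4 particle. Strongest in that list were rsr-1/sri-5 at 287 and clu-1/prp-40 at 254.5. The respiration list was led by atp-1 (547), followed by cox-6B beside Y71H2AM.20 (269.8) and clpp-1/mdt-22 (232), where clpp-1 encodes a mitochondrial protease.

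Translation factors and tRNA synthetases stood at 9.09% (7 of 77 genes), and all 7 of their summits overlapped both replicate lists, with a median signal of 342. They comprised the elongation factor genes eef-1A.1, eef-1B.1, eef-1G and eef-2, drr-2, and the synthetase genes aars-1 and ears-2. In 6 of the 7 the listed gene was the nearer one. The summit at ctf-4/eef-1G reached 363 and that at eef-1A.1/rfc-4 350, and their partner genes encode replication proteins.

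Cell cycle and replication genes stood at 7.64% (11 of 144), proteasome and ubiquitin genes at 6.54% (7 of 107) and mitochondrial ribosomal protein genes at 5.71% (4 of 70). Among the first, tbb-1/rib-2 at 279, T10B5.3/knl-3 at 276 and cdk-5/kel-3 at 198.9 were strongest, where tbb-1 encodes a beta-tubulin and knl-3 a kinetochore protein. The second was led by aka-1/ubc-6 at 424, hsp-110/rpn-3 and ubq-2/frg-1 at 235.3. The mitochondrial ribosome summits were weaker, from 113 to 161, the highest at mrpl-45/Y119D3B.12.

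Membrane traffic genes stood at 4.86% (7 of 144), with sec-61.B, rab-18 and sec-15 in front. Autophagy, lysosome and V-ATPase genes stood at 3.3% (3 of 91), at cup-14/ndub-8, C17H12.2/vha-8 and sqv-3/vha-1. Transcription and chromatin genes stood at 2.66% (18 of 677), near the share of all genes, although mdt-26, set-16 and set-21 were among them. Core histone genes faced each other at his-67/his-68, his-35/his-41 and his-61/his-62, with signals of 232.9, 100.3 and 99.2. Histone genes have near-identical copies, and how the authors handled reads that fit several places is not given in the sources used here.

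Lists for the sensory and cuticle gene families had few such genes. Chemoreceptor genes stood at 0.153% (2 of 1309) and cuticle collagens at 0.592% (1 of 169). The stronger of the chemoreceptor summits lay at sri-5, opposite the splicing gene rsr-1. The collagen gene was col-38, opposite the ribosomal protein gene rpl-5. In both cases the listed gene was the nearer one, though col-38 and rpl-5 were almost equally far.

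At 23 of the 219 summits the nearest gene on each side belonged to a list, and at 10 of them to the same list. These counts were not made for opposite-strand pairs without a summit, so they describe the pairs only. A pair shared more than 1 summit at wapl-1/htz-1, spd-2/F32H2.10 and smn-1/klp-16, so the 219 summits represent 216 distinct pairs. At wapl-1/htz-1, beside genes for a cohesin release factor and the histone variant H2A.Z, the stronger summit reached 312.6 and the weaker 48.3. Both matched the same region in each replicate (146 and 181), so the weaker ones at these pairs have no replicate value of their own. Windows of 3 genes occurred 6 times, at rbc-2/ndua-8, lin-7/elof-1, C34E10.10/atp-2, F59E12.17/zyg-1 and, with different summits, dli-1/tin-9.2 and dli-1/exos-4.1.

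Genes of these pairs often had a close neighbour downstream on the same strand. Of the 438 nearest genes counted over summits, 157 (35.8%, 31.3 to 40.5) had another gene on the same strand within 500 bp downstream of their end. Among all protein-coding genes, in any arrangement, the share was 18.0% (17.5 to 18.6). First genes of worm operons have such a neighbour, but so do inner ones, and the place of a gene in its run was not checked. The share at opposite-strand pairs without a summit was not counted. A non-coding RNA gene of the ncRNA class lay within 100 bp of 32 summits (14.6%) and a tRNA gene within 100 bp of 1, at sec-15/C28G1.2. Genes of the snRNA and miRNA classes lay that near at 2 summits each, and snoRNA, piRNA and antisense RNA genes at 1 each. The snRNA-class gene sls-2.8 was beside the tim-1/Y75B8A.23 summit. These counts were not made at the other promoter summits. Stretches of 30 bases that occur elsewhere in the genome were present in the windows of 20 summits and made up over 50% of the window at 2, F22D6.8/F22D6.9 and ruvb-1/tofu-1.

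A higher share of the CCAAT box at these summits than beside them did not pass the test. CCAAT on either strand lay within 100 bp of 74 of 219 summits (33.8%, 27.6 to 40.5), against 28.3% in windows of equal length centred 500 bp to the left and 35.6% to the right (exact McNemar test, two-sided, adjusted p = 0.55 and 1). At the other promoter summits it was 30.3% (adjusted Fisher's exact p = 0.55). In the 201 bases upstream of every protein-coding gene's first start it was 32.4% (31.7 to 33.03). Of the 74, 64 held CCAAT without the extended box, and 19 of the 219 held more than 1 CCAAT. Most flank windows, here and below, lay past the nearest starts. The distance from the summit to the farther start had an upper quartile of 382.5 bp, so the flanks compare promoter with gene sequence in part.

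The extended box was at 10 of 219 summits (4.57%, 2.21 to 8.24), against 1.83% of left flanks and 4.57% of right flanks (exact McNemar, adjusted p = 0.55 and 1) and 4.62% of other promoter summits (adjusted Fisher's exact p = 1). Upstream of all genes, 1.47% (1.30 to 1.64) of windows of the same length held it. The comparisons with the flanks and with other promoter summits did not pass, and the comparison with windows upstream of all genes was not tested.

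Signals at boxed summits fell in separate ranges. The 3 strongest of all 219 summits each held a box, whereas the other 7 boxed summits ranked from 114 to 201 with signals from 98.0 to 160. Their partner genes range widely, from the mitochondrial alanyl-tRNA synthetase gene aars-1 (rga-1 opposite, 159.8) to the ribosomal protein genes of rps-14/rpl-36 (119.9). Of the 10 boxed regions 4 overlapped both replicate lists (40%, 12.2 to 73.8), against 55.0% (48.01 to 61.9) of those without a box. With nearness taken from the summit, the CCAAT strand was that of the nearer gene in 7 of 10 (exact binomial test against an even split, two-sided, p = 0.344, adjusted p = 0.55). By the distance of the box itself it was 4 of 10 (exact 95% interval 12.2% to 73.8%), a count made after the positions were seen. At ift-43/mdt-26 it read toward mdt-26, at C47E8.4/hsp-90 toward hsp-90, and at imp-2/enpl-1 toward imp-2. Both hsp-90 and imp-2 were the farther gene of their pair.

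**Figure D5:**
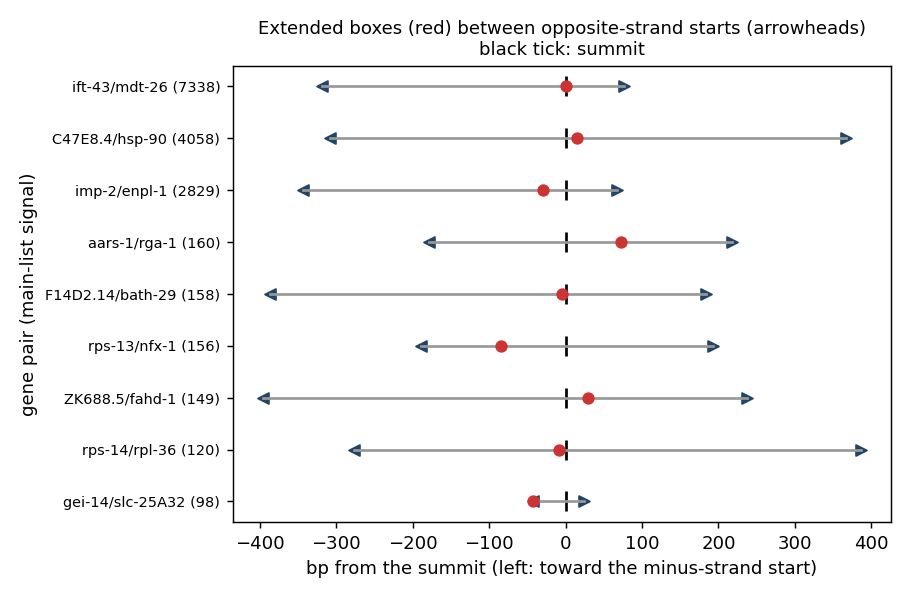
Position of the extended box (red) and the summit (black tick) between the nearest starts (arrowheads) for 9 of the boxed pairs, in bp from the summit (x axis), with pairs in order of main-list signal (y axis). The box lies close to the summit at ift-43/mdt-26, F14D2.14/bath-29 and rps-14/rpl-36, and near the edge of the 100 bp search window at rps-13/nfx-1.

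The pentamers that differed most from the flanks were rich in G and C. Most flanks lay past the nearest starts, and the part of that in the differences was not tested. Among all pentamers, counted with their reverse complements, GCGCA led, at 52.5% of summit windows against 10.05% and 15.5% of the flanks, followed by CGCGC at 46.6% against 7.31% and 6.85%. CGCGC was chosen for this difference, so no test was made. It was at 31.7% (29.0 to 34.5) of promoter summits with starts on 1 strand and 10.3% (9.9 to 10.8) of windows upstream of all genes, which were not centred on a summit. Mean GC content was 42.2% ± 6.13 (SD over 219 windows), against 39.1% and 39.4% in the flanks and 43.5% at summits with starts on 1 strand. Neither CCAAT nor CGCGC lay at 80 of the 219 summits (36.5%). From the strongest to the weakest quartile of signal, CGCGC lay at 51.9%, 49.1%, 34.5% and 50.9% of summits. The ift-43/mdt-26 window alone held 8 matches, both strands counted.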

How the data were processed

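Per the labels, NFYB-1 chromatin immunoprecipitation was sequenced in 2 replicates of 1 group, and DNA was sonicated to 200 to 800 bp. Which aligner and peak caller were run, and in which versions, is not given in the sources used here. Lists on ce11 were deposited, compared by the irreproducible discovery rate (IDR). Each deposited region has a score, the scaled global IDR (at least 830 in the main list, which is an IDR of 0.01), and a signal. The deposited −log10 values of the ranked lists hold the global IDR. The main list is the authors' conservative thresholded list of the whole series, and the lists of the replicates held 1734 and 2433 regions. The labelled control was not used here.

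Starts came from Ensembl release 115 (WBcel235, 6 nuclear chromosomes), and product names and sequence from RefSeq. Of the main regions, 0 ran past a chromosome end, and coordinates are 1-based. Replicate signals are those of the overlapping ranked region with the nearest summit. Tests were two-sided Fisher's exact, exact McNemar and exact binomial tests, with Benjamini-Hochberg adjustment over 8 p-values at 0.05, in scipy 1.17.1 (Python 3.11.15, pandas 2.3.3, numpy 2.4.6, matplotlib 3.10.9). They treat regions as independent and do not test variation between worms. Intervals are exact at 95% and cover counting error only. Classification and the extended-box comparisons were tested on simulated data, with fewer regions than here. The CCAAT, replicate-list overlap and orientation tests were not evaluated there.

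Members, lists and tests were chosen with earlier results of these data known. The lists are patterns of gene symbols, and wrongly matched symbols were taken out after the members had been seen, with none added. Named were the 20 strongest members present in both replicate lists, the 10 strongest with an extended box, the 3 strongest of each list, the 5 with the smallest, largest and most even spacing, those with 3 or more genes, those nearest the window edges and the 3 weakest. Others are said to be named after their values were seen, apart from partner examples in lists and shared pairs. A boxed sequence and a chemoreceptor pair are not reported here. Alternatives covered the list, the replicates, the IDR, the promoter and motif windows and the choice of start.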

Additional observations from a re-analysis of the deposited data

How the results depend on the processing

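The stricter IDR of 0.01 selected the same 3879 regions as the main list and so tests nothing. Of the other 111 alternative values, 65 kept their direction and their side of the threshold, stayed within 1.5 times the main count, or moved by less than the spread between the replicate lists. No paired analysis was possible because there is only 1 group.

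The number of summits with starts on both strands was 219, and 141 at an IDR of 0.001, 119 for regions in both replicate lists, 91 with a narrower promoter (250 bp upstream, 100 bp downstream) and 353 with a wider one (1000 bp upstream). In the replicates' own lists it was 134 (replicate 1) and 183 (replicate 2). As a share of promoter summits, 16.0% became 22.0%, 23.3%, 10.7% and 20.1% in the same order, 15.8% in the other whole-series list, 17.9% with the most upstream start of each gene only, and 20.5% and 20.1% in the replicates' own lists. The extended box lay at 4 summits in both replicate lists, 4 with the narrower promoters, 17 with the wider ones, and from 4 to 8 in the replicates' own lists.

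The ratio of median signals, 1.31, was 1.20 at an IDR of 0.001, 1.15 in both replicate lists, 1.25 with wider promoters, 1.27 with the most upstream start, and 1.22 to 1.27 in the replicates' own lists. The share of summits between the starts, 88.6%, was 91.5%, 91.6%, 91.2% and 89.2% at an IDR of 0.001, in both replicate lists and with narrower and wider promoters. It was 89.7% in the other whole-series list, 87.1% with the most upstream start, 88.9% with only the strongest summit of each pair, and 88.5% to 88.8% in the replicates' own lists.

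The higher presence in both replicate lists lost its call at an IDR of 0.001 (6.38 points, adjusted Fisher's exact p = 0.653), where 1617 regions remained. It kept the call under each other alternative computed. In a replicate's own list every region overlaps that list, so there the comparison covered only overlap with the list of the other replicate. CCAAT and box comparisons never passed, and 14 of their differences changed sign. CCAAT against the mean of the flanks went from 1.83 points to -3.59 in the other whole-series list, -3.85 with narrower promoters, -2.28 within 150 bp of the summit, and from -2.99 to -1.37 in the replicates' own lists. Against other promoter summits it went from 3.51 points to -1.80, -1.16 and -0.75 in the same order, -1.11 with wider promoters, and from -4.14 to -1.21 in the replicates' own lists. The extended box against other promoter summits went from -0.06 points to 0.72 with narrower promoters, 0.33 with the most upstream start and 0.0048 with the strongest summit of each pair. The causes of these shifts were not tested. The IDR of 0.001 and the strongest summit per pair were chosen after seeing the data. Sequencing depth is unknown, and depth limits which weak summits could be called.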
